A study of Mus musculus with 123 samples.

Results

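Crh, Crhbp and Crhr1 are the genes of the corticotropin-releasing hormone (CRH) system that have a row in the RNA table, 3 of 13842 genes. They were taken by name, and their levels were followed in all 62 animals with an RNA library. All were male mice of the inbred C57BL/6J strain, 11-12 weeks old at treatment, under a 12:12 h light-dark cycle, and the labels name no transgene or mutation. The cortex of each mouse was split between RNA-seq, which measures transcript abundance, and ATAC-seq, in which a transposase inserts adapters into open chromatin. Undisturbed controls with ad libitum sleep were killed at ZT0 (lights on; 8 animals, labelled T0 or T24), ZT3 (3 animals), ZT6, ZT12 (lights off) and ZT18 (5 animals each), where ZT counts hours after lights on. Sleep deprivation lasted 6 h from lights on, by gentle handling, which is 24 h to 30 h on the study's clock, and each deprived group held 3 animals. Groups T27 and T30 were taken after 3 and 6 h of this wakefulness. T36, T42, T48, T54, T60, T66, T72, T78, T192 and T198 followed 6, 12, 18, 24, 30, 36, 42, 48, 162 and 168 h after it ended. The labels of T36 place it during deprivation, while the protocol ends deprivation at 30 h, and the protocol's time is used here. Each library came from 1 mouse, and the batch label, described in the series' design as a batch of animals, was 1 for all animals of T27 to T54, T72 and T78 and 2 for all animals of T60, T66, T192 and T198. Controls at ZT0, ZT6, ZT12 and ZT18 held both batches, and the ZT3 controls held batch 1 only.

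CRH is a neuropeptide that is best known as the hypothalamic trigger of the pituitary and adrenal stress response, and that also promotes arousal within the brain. In mouse neocortex it is made mainly by inhibitory interneurons, many of which also contain vasoactive intestinal peptide, whereas its receptor is found largely on excitatory neurons. The receptor encoded by Crhr1 couples to the stimulatory G protein and raises cAMP, and the secreted protein encoded by Crhbp binds CRH and limits how much reaches the receptor. The second receptor, Crhr2, and the ligands Ucn, Ucn2 and Ucn3 were not analysed here.

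The RNA values are log2 of a depth-scaled level plus 0.5, as deposited. They are compared between animals for 1 gene at a time, because nothing in the sources used here says whether they were scaled by transcript length. In this cortex the mean deposited log2 level over all animals was 3.23 for Crh, 4.33 for Crhbp and 4.78 for Crhr1, at the 27.0th, 47.2th and 57.1th percentiles of the 13842 genes. Markers of neighbouring structures were checked in the same table. None of the 9 hypothalamic markers listed, which include Avp, Oxt and Trh, had a row, while all 14 markers of inhibitory neurons and all 12 of excitatory neurons did. Because the tissue is bulk cortex, fewer cells of a type and less RNA per cell cannot be told apart in any level given here.

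The genes lie at 3 loci (build GRCm38). Crh occupies chromosome 3, 19693401-19695396, and an annotated long non-coding RNA, Gm42189 (19694273-19707354), overlaps it. The kit marks strand, but the sources used here do not say whether the authors' counting used it, so reads of Crh and of an overlapping transcript may not be told apart. Crhbp occupies chromosome 13, 95431376-95444831, on the minus strand, and Crhr1 occupies chromosome 11, 104130463-104175523, on the plus strand, with the long non-coding RNA Gm35469 inside its span. The promoter set used here held no entry for Crh, so no Crh promoter is printed. Promoters of Crhbp and Crhr1 are printed 5′ to 3′, and a peak of open chromatin lay at or near each start. Each holds 300 bases around the annotated start (RefSeq, GRCm38.p6). The Crhr1 start used by the RefSeq promoter table lies inside the gene span given above and is not its first base. They were searched on both strands for the full cAMP response element TGACGTCA, its TGACG core, the AP-1 site TGANTCA, the E-box CACGTG and the TATA box TATAAA, and capitals mark the matches. The core lies within the full element, so every match to the full element is also a match to the core.
Crhbp promoter, chr13:95444782-95445081, minus strand: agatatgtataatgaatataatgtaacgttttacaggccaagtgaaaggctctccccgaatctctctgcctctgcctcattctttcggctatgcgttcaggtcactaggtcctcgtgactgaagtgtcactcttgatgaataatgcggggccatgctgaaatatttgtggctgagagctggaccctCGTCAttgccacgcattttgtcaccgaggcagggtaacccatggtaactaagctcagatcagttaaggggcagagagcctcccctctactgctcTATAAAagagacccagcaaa
Crhr1 promoter, chr11:104132531-104132830, plus strand: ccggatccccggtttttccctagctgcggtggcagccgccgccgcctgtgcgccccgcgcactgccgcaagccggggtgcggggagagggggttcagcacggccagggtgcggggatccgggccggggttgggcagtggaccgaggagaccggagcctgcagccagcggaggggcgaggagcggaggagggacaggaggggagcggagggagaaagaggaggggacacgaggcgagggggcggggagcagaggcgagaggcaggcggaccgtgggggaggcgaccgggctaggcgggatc
The sequences differ in base composition. The Crhr1 promoter was 75.0% G and C and held none of the 5 motifs. The Crhbp promoter was 48.0% G and C, against a median of 52.7% over 32851 promoters of the same length. It held 1 core of the cAMP response element, starting 64 bases before the annotated start base, and 1 TATA box, starting 30 bases after it. Of all 32851 promoters, 20.8% held the core, 13.6% the TATA box, 7.81% the AP-1 site, 7.15% the E-box and 1.79% the full element.

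In undisturbed mice Crh mRNA varied with time of day: it was highest at lights on and lowest at lights off. The 8 ZT0 animals ran from 3.18 to 3.70 with a median of 3.41, and their mean was 3.40 ± 0.18 (SD, n = 8). At ZT3 the levels were 3.21, 3.35 and 3.22, with a mean of 3.26 ± 0.08 (SD, n = 3). At ZT6 they were 2.87, 3.22, 3.12, 3.18 and 3.15, with a mean of 3.11 ± 0.14 (SD, n = 5). Every ZT12 animal lay below every ZT0 and every ZT3 animal, as the plot of control levels by time of day shows, and groups did not overlap for 11.5% and 19.3% of all genes in these comparisons. The ZT12 levels were 2.94, 2.82, 2.78, 2.70 and 2.54, with a mean of 2.76 ± 0.15 (SD, n = 5). At ZT18 they were 2.99, 3.00, 3.00, 3.26 and 3.24, with a mean of 3.10 ± 0.14 (SD, n = 5), above every ZT12 animal, where 18.3% of genes did not overlap.

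The control order for Crh was therefore ZT0, ZT3, ZT6, ZT18 and ZT12 from high to low. Over the 5 times, limma's F-test gave an adjusted p of 3.47e-06 for Crh, and 40.7% of all genes passed the same test. Neighbours in this order that did not pass the test were ZT0 and ZT3 (difference 0.13, adjusted p = 0.55), ZT3 and ZT6 (adjusted p = 0.536), and ZT6 and ZT18 (adjusted p = 0.931). The drop from ZT0 to ZT12 was a log2 difference of -0.64 (SE 0.09, adjusted p = 3.15e-07 by limma), and ZT12 was also lower than ZT3 by -0.51 (SE 0.12, adjusted p = 0.00341). Among all genes, 26.0% were called between ZT12 and ZT0 and 7.33% between ZT12 and ZT3. The rise from ZT12 to ZT18 was 0.34 (SE 0.10, adjusted p = 0.0081), and 26.8% of all genes were called there. With the animal number as a block the ZT12 against ZT3 difference was -0.41 (adjusted p = 0.0546), the ZT18 against ZT12 difference 0.22 (adjusted p = 0.239) and the ZT12 against ZT6 difference -0.20 (adjusted p = 0.588), so these calls were lost. With batch 1 animals alone the ZT18 against ZT12 difference was 0.15 (adjusted p = 0.409) and the ZT12 against ZT6 difference, -0.36 over both batches (adjusted p = 0.0286), was -0.23 (adjusted p = 0.528), whereas the ZT12 against ZT0 call stood under the 22 settings tried. The ZT12 against ZT6 call (3.87% of genes called) was also lost without T12N5, T12N6, T6N3, T6N4, J76N1 or J76N2, one at a time, at -0.35 to -0.29 (adjusted p from 0.0598 to 0.142). The ZT6 against ZT0 call (-0.29, adjusted p = 0.0159; 22.7% of genes called) ended without the ZT6 animal T6N2, at -0.23 (adjusted p = 0.0803), and with batch 1 animals alone, at -0.33 (adjusted p = 0.0526).

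Time of day moved the partner genes less. Crhbp means ran from 4.38 ± 0.08 (SD, n = 3) at ZT3 down to 4.18 ± 0.09 (SD, n = 5) at ZT18, a control range of 0.21 against 0.65 for Crh. Its F-test gave an adjusted p of 0.0346, which became 0.176 with batch 1 animals alone and 0.0505 to 0.0931 without J70N1, T12N1, T12N6, T18N2, T18N3, T18N8, T3N3 or T3N4, and no pair of control times passed the test. Crhr1 means ran from 4.73 ± 0.06 (SD, n = 8) at ZT0 to 4.90 ± 0.02 (SD, n = 3) at ZT3. The Crhr1 F-test had an adjusted p of 0.113, and none of its 10 pairs of control times passed. The control range of Crh exceeded that of 97.9% of all genes, compared with 62.4% for Crhbp and 48.3% for Crhr1.

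**Figure D1:**
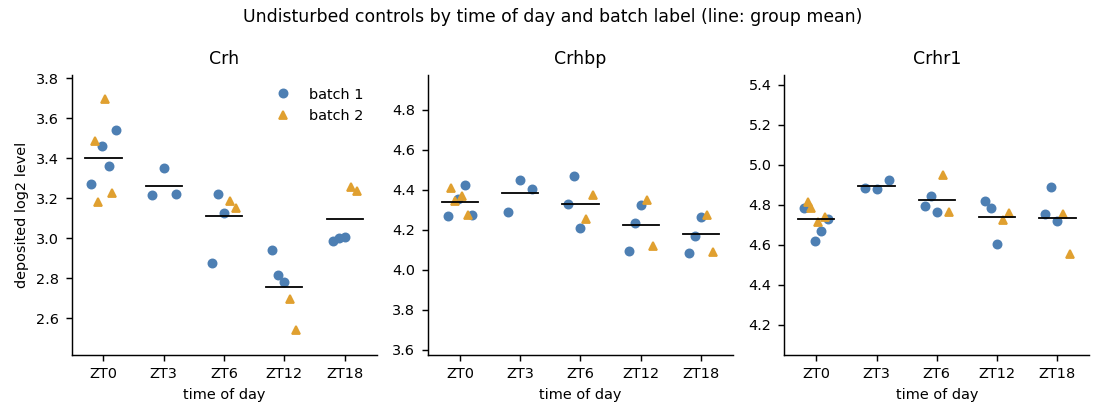
Deposited log2 level (y axis) of Crh, Crhbp and Crhr1 in undisturbed controls by time of day (x axis); circles are batch 1 and triangles batch 2 animals, and lines are group means, with every y axis spanning the same number of log2 units. Crh falls from a mean of 3.40 at ZT0 to 2.76 at ZT12, while the means of Crhbp and Crhr1 stay within 0.21 and 0.17.

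The transcript of the peptide itself was higher during enforced wakefulness than in controls of the same time of day. It was still higher 6 h after the mice were left undisturbed. Wakefulness and the handling that enforced it came together in every deprived animal, and the part of each was not tested. After 3 h the T27 animals had Crh levels of 3.92, 3.87 and 3.74, all above the 3 ZT3 controls. After 6 h the T30 animals had 4.01, 4.02 and 4.27, all above the 5 ZT6 controls. At T36 the levels were 4.00, 3.86 and 4.00, against 2.54 to 2.94 in the ZT12 controls. No deprived animal of these 3 groups overlapped its controls, and their lowest value, 3.74, also lay above the highest of all control animals, 3.70. Groups that did not overlap were found for 31.7%, 32.4% and 19.1% of all genes at T27, T30 and T36.

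The differences were 0.58 (SE 0.13, 1.50-fold, adjusted p = 0.00111) at T27 and 1.00 (SE 0.12, 2.00-fold, adjusted p = 9.33e-09) at T30, by limma with Benjamini-Hochberg adjustment over all genes. The T36 difference was 1.20 (SE 0.12, 95% interval 0.97 to 1.44, 2.30-fold, adjusted p = 2.04e-10). At these times 15.6%, 31.6% and 11.9% of all genes were called, of which 8.21%, 16.0% and 7.46% of all genes were higher and 7.37%, 15.6% and 4.46% lower. Among all genes ordered by size of rise, Crh stood 181st at T27, 69th at T30 and 9th at T36. The effect at T30 was not shown to differ from that at T27 (difference 0.42, SE 0.17, adjusted p = 0.566), nor that at T36 from that at T30 (0.20, SE 0.16, adjusted p = 0.474). Within batch 1 the 3 effects were 0.58, 1.03 and 1.10, all called.

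The mean Crh level itself was highest at T30 (4.10 ± 0.15, SD, n = 3), with T36 (3.95 ± 0.08, SD, n = 3) and T27 (3.84 ± 0.09, SD, n = 3) after it among the 17 groups. The larger difference at T36 was measured against the ZT12 controls, in which Crh was at its lowest. Set against the ZT0 controls, in which it was highest, T30 was higher by 0.71 (SE 0.11, adjusted p = 4.71e-05) and T36 by 0.56 (SE 0.11, adjusted p = 0.000374), where 5.47% and 13.2% of genes were called. Set against the ZT18 controls, taken in the dark phase when mice are mostly awake on their own, T30 was higher by 1.01 (SE 0.12, adjusted p = 6.68e-08) and T36 by 0.86 (SE 0.12, adjusted p = 5.55e-07), where 6.68% and 15.4% of genes were called. These comparisons reuse the same deprived animals and the same controls as others above.

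**Figure D2:**
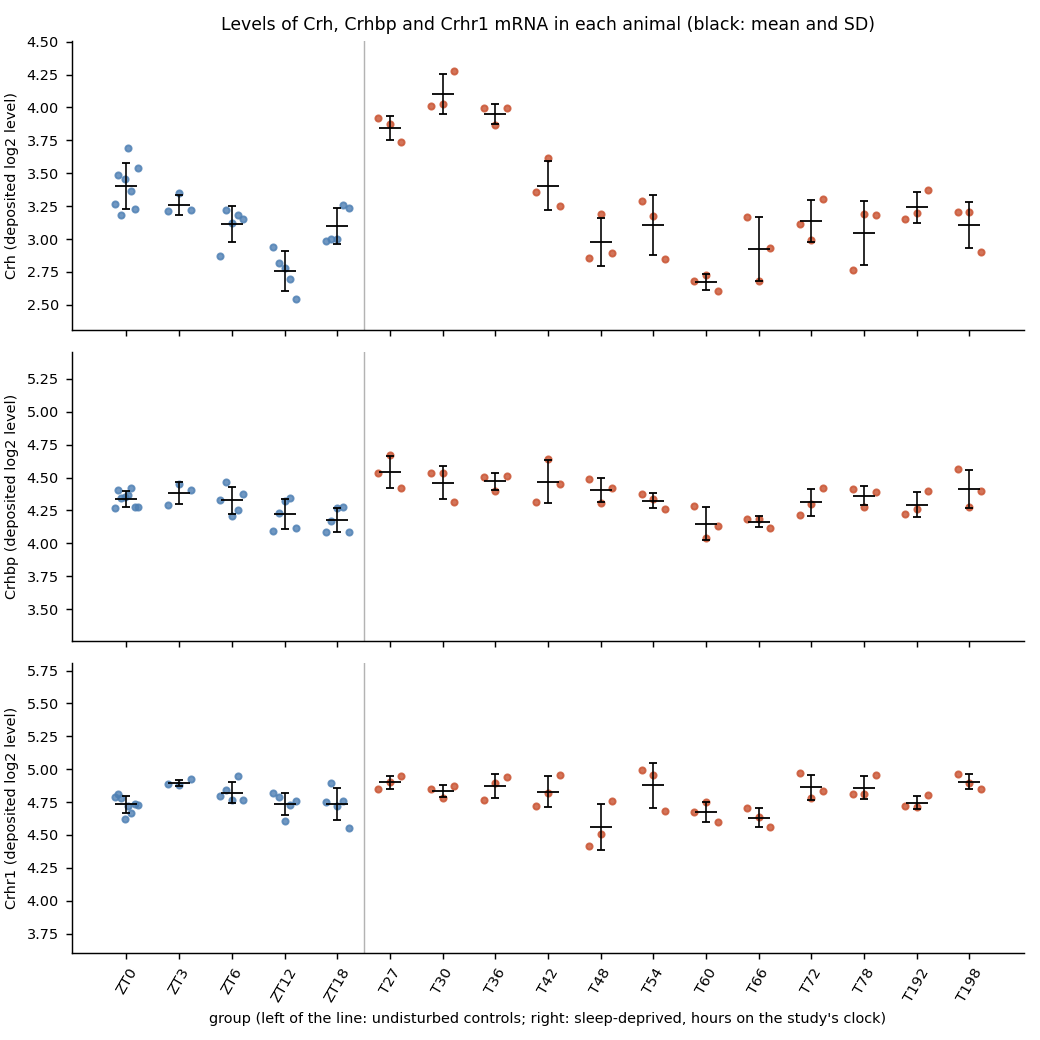
Deposited log2 level (y axis) of Crh, Crhbp and Crhr1 in each animal of the 17 groups (x axis), with controls left of the grey line and deprived groups right of it; black marks are the group mean and SD. The Crh levels of T27, T30 and T36 lie between 3.74 and 4.27, above all 26 controls, while the other panels show groups that mostly overlap.

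The Crh effect was smaller in the first recovery night, and Crh was below its controls at the next lights on. At T42 the levels were 3.36, 3.62 and 3.25. Animals with 3.36 and 3.62 lay above all 5 ZT18 controls, and the animal with 3.25 lay within them. The difference of 0.32 (SE 0.12, 95% interval 0.08 to 0.56, adjusted p = 0.209) did not pass the test after adjustment. The effect at T42 was smaller than that at T36 by -0.89 (SE 0.16, adjusted p = 0.000614), and 3.30% of genes were called for that change of effect. At T48 the levels were 2.86, 3.19 and 2.89, and animals with 2.86 and 2.89 lay below all 8 ZT0 controls, while the animal with 3.19 lay within them. The T48 difference was -0.41 (SE 0.11, adjusted p = 0.0462), with 1.27% of genes called (0.571% higher and 0.701% lower), and the effect had changed from T42 by -0.73 (SE 0.16, adjusted p = 0.0112; 1.01% of genes called).

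The T48 call was close to the threshold. It was lost with batch 1 animals alone (-0.43, adjusted p = 0.0741) and with the ZT0 controls labelled T24 or T0 alone (-0.41 each, adjusted p = 0.129 and 0.125). It was also lost without T48S1 (-0.35, adjusted p = 0.216) or T48S4 (-0.37, adjusted p = 0.203), and without any one of the 6 ZT0 controls T0N1, T0N2, T0N3, T0N5, J70N1 and J70N2, when the adjusted p lay between 0.0516 and 0.106. The change of effect from T42 to T48 was lost without T42S4 only (-0.63, adjusted p = 0.0511). From T54 to T198 no Crh difference passed the test, and at these times between 0% and 0.0795% of all genes did (0.00722% at T54). The differences ran from -0.26 (SE 0.11, adjusted p = 0.575) at T72 to 0.00 (SE 0.12, adjusted p = 0.995) at T54, and 95% intervals were -0.40 to 0.05 at T192 and -0.26 to 0.22 at T198, a week after deprivation.

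**Figure D3:**
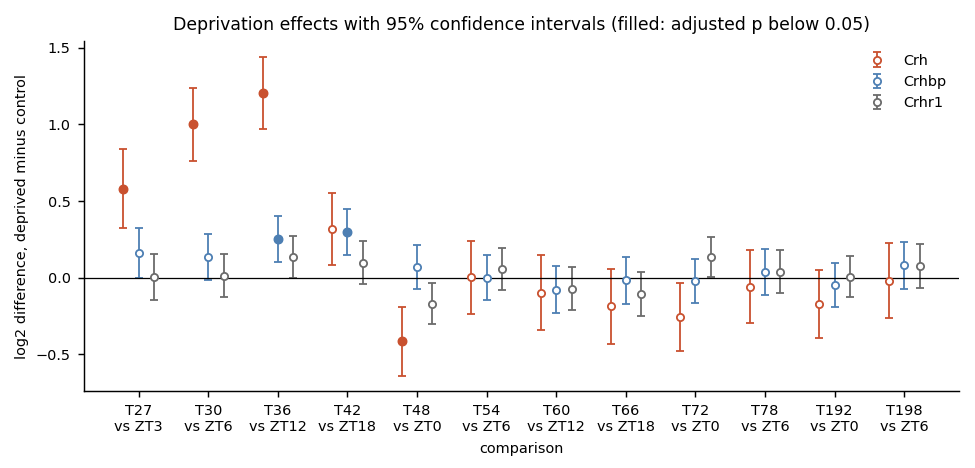
Log2 difference between each deprived group and its time-matched controls (y axis) for Crh, Crhbp and Crhr1 in 12 comparisons (x axis); bars are 95% confidence intervals from limma, and filled symbols have an adjusted p below 0.05. Crh runs from 0.58 at T27 to 1.20 at T36 and to -0.41 at T48, Crhbp is filled at T36 and T42, and Crhr1 is filled nowhere.

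The binding protein transcript was called higher at T36 and T42. Crhbp levels at T27 were 4.53, 4.67 and 4.42, against 4.29, 4.45 and 4.41 at ZT3, and at T30 they were 4.53, 4.53 and 4.32, against 4.21 to 4.47 at ZT6. Both groups overlapped their controls and neither difference passed the test (0.16, SE 0.08, adjusted p = 0.181, and 0.14, SE 0.07, adjusted p = 0.161). At T36 the levels of 4.51, 4.40 and 4.51 lay above all 5 ZT12 controls, which ran from 4.09 to 4.35. The T36 difference was 0.25 (SE 0.07, 1.19-fold, adjusted p = 0.0181). At T42 the levels of 4.31, 4.64 and 4.45 lay above all ZT18 controls, which ran from 4.08 to 4.27, and the difference was 0.30 (SE 0.07, 1.23-fold, adjusted p = 0.0285). At T42, 1.05% of all genes were called, 0.614% higher and 0.433% lower, and groups did not overlap for 8.39%.

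Both Crhbp calls depended on single animals. The T36 call was lost without T36S1, T36S4 or the ZT12 control T12N1, at 0.23, 0.23 and 0.21 with adjusted p of 0.0957, 0.0724 and 0.0719. The T42 call was lost without T42S4 (0.21, adjusted p = 0.232), T42S6, T18N2, T18N3 or T18N8, with adjusted p of 0.0586 to 0.232 over these 5 animals, and with batch 1 animals alone (0.30, adjusted p = 0.0997). Against the ZT18 controls Crhbp was also higher at T30 (0.29, SE 0.07, adjusted p = 0.0106) and T36 (0.30, SE 0.07, adjusted p = 0.00343), and the T30 call was lost without T30S1 or T30S3 (0.25 each, adjusted p = 0.0806 and 0.0797). No Crhbp effect was shown to differ between neighbouring times (adjusted p from 0.304 to 0.973), and from T48 on its differences lay between -0.08 and 0.08 with none called.

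The receptor transcript was not shown to change at any time. Crhr1 levels were 4.85, 4.90 and 4.95 at T27, against 4.88 to 4.92 at ZT3 (difference 0.00, 95% interval -0.15 to 0.16). They were 4.85, 4.78 and 4.87 at T30 (difference 0.01, 95% interval -0.12 to 0.15) and 4.77, 4.90 and 4.94 at T36 (difference 0.14, 95% interval -0.003 to 0.27, adjusted p = 0.207). The lowest group was T48, with 4.42, 4.51 and 4.76, against 4.62 to 4.81 in the ZT0 controls. That difference was -0.17 (SE 0.07, adjusted p = 0.207), and its change from T42, -0.27 (adjusted p = 0.157), passed the test only without T48S4 (-0.36, adjusted p = 0.0476). Over all 12 comparisons the adjusted p for Crhr1 was 0.207 or higher, and the intervals at T27 and T30 held no change as large as that of Crh at the same times.

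The level of the peptide transcript relative to that of its binding protein was taken in each animal as log2 Crh minus log2 Crhbp. This difference between 2 genes carries an unknown constant, so only its change between groups is read. It was -0.62, -0.80 and -0.68 in the deprived animals at T27 with a control mean of -1.12. It was -0.53, -0.51 and -0.04 at T30, against -1.46 to -1.07 at ZT6, and -0.53 to -0.51 at T36, against -1.65 to -1.15 at ZT12. The change was 0.42 at T27, 0.86 at T30 and 0.95 at T36, and in these comparisons the groups did not overlap. Exact two-sided permutation tests gave p = 0.1 at T27 and p = 0.0179 at T30 and T36, in each case the smallest p these group sizes allow. Adjusted over the 12 comparisons they were 0.24, 0.0714 and 0.0714. At T42 the change was 0.02 (exact permutation p = 0.875), and at T48 it was -0.49 (exact permutation p = 0.0121, adjusted p = 0.0714). At T72 it was -0.24 (exact permutation p = 0.0485, adjusted p = 0.145). None of the 12 changes had an adjusted p under 0.05.

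Genes that process and release neuropeptides were called in both directions. Of 8 measured, 1 rose and 1 fell at T27, 1 rose and 3 fell at T30, none was called at T36 and 1 rose at T42, while 15.6%, 31.6%, 11.9% and 1.05% of all genes were called at these times. Their median difference was -0.02, -0.04, 0.02 and 0.00 at these times, against -0.01, 0.00, 0.00 and 0.00 over all genes. Pcsk1, a convertase that cleaves prohormones, rose by 0.88 (SE 0.12, adjusted p = 2.13e-06) at T27 and 0.91 (SE 0.11, adjusted p = 3.75e-08) at T30. Its T30 levels of 5.37 to 5.59 lay above the ZT6 controls, 4.31 to 5.06, and at T36 its difference was 0.30 (adjusted p = 0.0745). Pcsk2, the other main convertase, fell by 0.18 (adjusted p = 0.00807) at T27 and by 0.27 (adjusted p = 4.13e-06) at T30, and rose by 0.17 (adjusted p = 0.0437) at T42. Scg5, a chaperone of that convertase, fell by 0.12 (adjusted p = 0.0423) at T30, and Cadps2, which primes dense-core vesicles for release, fell by 0.24 (adjusted p = 0.0223). Single animals carried the smaller of these calls. Pcsk2 was not called at T27 without T3N3 or T27S2 (adjusted p = 0.0669 and 0.117), nor at T42 without any one of the 8 animals (adjusted p from 0.0503 to 0.281). Cadps2 was not called without T30S1 (-0.17, adjusted p = 0.185), nor Scg5 without T6N3, T6N4, J76N2, T30S1, T30S3 or T30S4 (adjusted p from 0.0655 to 0.129). With batch 1 animals alone Scg5 at T30 and Pcsk2 at T42 were not called (adjusted p = 0.0683 and 0.180), nor was Pcsk2 at T42 with the animal number as a block (0.15, adjusted p = 0.122).

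Some genes that carry the receptor's signal were called, in both directions. Of 20 measured genes for G proteins, adenylyl cyclases, protein kinase A subunits, phosphodiesterases and receptor desensitization, 1 fell at T27, 3 rose and 1 fell at T30, 1 rose and 1 fell at T36, and none was called at T42 or T48. Over all genes 15.6%, 31.6% and 11.9% were called at T27, T30 and T36. The median difference of the list was 0.00, 0.01 and 0.03 at these times, against -0.01, 0.00 and 0.00 over all genes, and the largest difference among the called genes was 0.30. Pde4b, which breaks down cAMP, fell by 0.23 at both T27 (adjusted p = 0.00158) and T30 (adjusted p = 0.000218). At T30 the cyclase Adcy3 rose by 0.30 (adjusted p = 0.000371), the kinase subunit Prkar2a by 0.23 (adjusted p = 0.0214) and the arrestin Arrb1, which uncouples active receptors, by 0.11 (adjusted p = 0.0194). At T36 the cyclase Adcy8 rose by 0.23 (adjusted p = 0.0231) and Adrbk2, a kinase that phosphorylates active receptors, fell by 0.19 (adjusted p = 0.00885). These calls were lost for Prkar2a without T30S3 or T30S4 (adjusted p = 0.0918 and 0.0579) and for Arrb1 without T6N4 or T30S4 (adjusted p = 0.0510 and 0.0930). They were lost for Adcy8 without T12N6, T36S1 or T36S4 (adjusted p from 0.0517 to 0.197) and for Adrbk2 without T36S1 (-0.17, adjusted p = 0.0863). With batch 1 animals alone Prkar2a (0.19, adjusted p = 0.116), Arrb1 (0.10, adjusted p = 0.0869) and Adcy8 (0.20, adjusted p = 0.0996) were not called. Arrb1 was also not called after quantile normalization (adjusted p = 0.0611), nor Adcy8 with the animal number as a block (adjusted p = 0.0828).

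Among 8 measured genes known to act on the Crh gene, 2 rose at T27, 3 rose and 2 fell at T30, 1 rose at T36, and none was called at T42. Over all genes 15.6%, 31.6%, 11.9% and 1.05% were called at these times. The median difference of the list was 0.02, -0.04, -0.05 and -0.06, against -0.01, 0.00, 0.00 and 0.00 over all genes. Nr4a1, an activity-induced nuclear receptor, rose by 1.20 (SE 0.38, adjusted p = 0.0244) at T27 and 1.97 (SE 0.35, adjusted p = 2.26e-05) at T30. Its difference was 0.03 (adjusted p = 0.97) at T36, when Crh remained high. Crem, whose products include an inducible repressor at cAMP response elements, rose by 0.64 (SE 0.09, adjusted p = 1.53e-06) at T27, 0.66 (SE 0.08, adjusted p = 2.48e-08) at T30 and 0.61 (SE 0.08, adjusted p = 4.65e-07) at T36, and its difference was -0.03 (adjusted p = 0.915) at T42. At T30 Nr3c2, the mineralocorticoid receptor, fell by 0.32 (adjusted p = 0.000219), and Rest, a repressor of neuronal genes, fell by 0.26 (adjusted p = 0.00374). Creb1, outside the naming rule and added after its value was seen, rose by 0.18 (adjusted p = 0.0161), and this call was lost without T30S4 (0.14, adjusted p = 0.129) and with batch 1 animals alone (0.16, adjusted p = 0.0804). Nr3c1, the glucocorticoid receptor, was called at none of these times. The T27 call of Nr4a1 was lost without T3N2, T3N4, T27S3 or T27S5 (0.99 to 1.18, adjusted p from 0.0668 to 0.134), and the T30 call of Rest without T30S4 (-0.20, adjusted p = 0.0630).

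**Figure D4:**
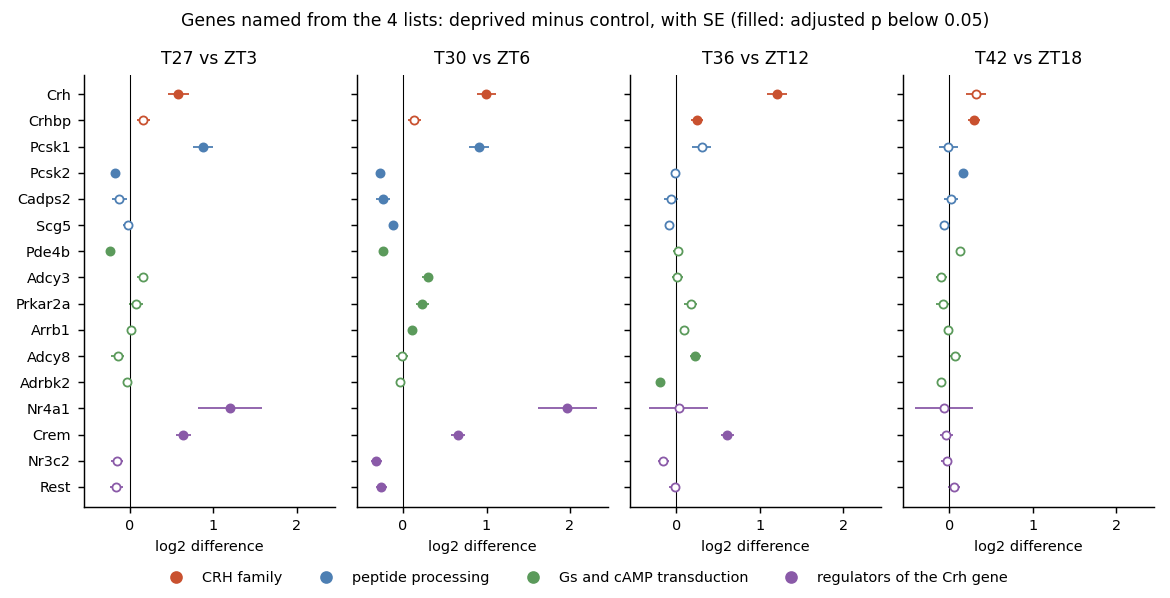
Log2 difference between deprived animals and controls of the same time of day (x axis) for the genes named from the lists of CRH family, peptide processing, receptor signalling and Crh regulators (y axis) at T27, T30, T36 and T42; bars are SE and filled symbols have an adjusted p below 0.05. Crh and Crem are filled at T27, T30 and T36, Pcsk1 and Nr4a1 at T27 and T30 only.

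Markers of cortical cell types were counted at the times of the Crh differences. Of 14 inhibitory neuron markers, none was called at T27, 4 rose and 1 fell at T30, 3 rose at T36, 2 rose at T42 and 2 fell at T48, where 15.6%, 31.6%, 11.9%, 1.05% and 1.27% of all genes were called. The median difference of the list was 0.00, 0.03, 0.03, 0.07 and -0.02 at these times, against -0.01, 0.00, 0.00, 0.00 and 0.00 over all genes. Vip, a peptide of a class of interneurons, rose by 0.29 (adjusted p = 0.00316) at T30 and 0.49 (adjusted p = 7.63e-06) at T36. Lamp5 rose by 0.24 (adjusted p = 0.00587) and 0.38 (adjusted p = 9.84e-05) at the same times, and Cort by 0.72 (adjusted p = 0.000505) and 0.65 (adjusted p = 0.00465). At T30 Lhx6 was also higher, by 0.19 (adjusted p = 0.00941), and Reln was lower, by -0.17 (adjusted p = 0.0420). Reln, 5th by size of change among the markers called at T30, is outside the naming rule. Its call was lost with batch 1 animals alone (adjusted p = 0.117). Leaving out 1 animal lost it in 6 of 8 fits (adjusted p up to 0.233). The T30 call of Lhx6 was lost in 1 of 8 such fits (adjusted p = 0.0633). At T42 Cort was higher by 0.78 (adjusted p = 0.00874) and Npy by 0.28 (adjusted p = 0.0305). Neither T42 call was kept with batch 1 animals alone (adjusted p = 0.0534 and 0.110). Gad1, Gad2, Slc32a1, Pvalb and Sst were called at none of T27, T30, T36, T42 and T48. The summed level of the list, on the linear scale of the table, was 1648 to 1686 at T36 and 1487 to 1526 at ZT12, and 1621 to 1679 at T30 and 1489 to 1632 at ZT6. It was 1525 to 1818 at T27 and 1547 to 1692 at ZT3. At T48 Lamp5 and Lhx6 were lower by -0.30 and -0.23 (adjusted p = 0.0105 and 0.0157). Without T30S4 the T30 call of Lamp5 was lost (0.20, adjusted p = 0.0570), and without T48S1 those of Lamp5 and Lhx6 at T48 were (adjusted p = 0.0635 and 0.0768), the latter also without T48S3 (adjusted p = 0.204). With batch 1 animals alone neither was called at T48 (adjusted p = 0.0802 and 0.0653), nor with the ZT0 controls labelled T24 alone (adjusted p = 0.0590 and 0.108), and Lhx6 was not called with those labelled T0 alone (adjusted p = 0.0519).

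Markers of other cell types were counted at the same times. Over all genes 15.6%, 31.6%, 11.9%, 1.05% and 1.27% were called at T27, T30, T36, T42 and T48. Of 12 excitatory neuron markers, 2 rose and 3 fell at T27, 1 rose and 2 fell at T30, none was called at T36 or T42 and 1 fell at T48. That gene was Camk2a, a kinase of excitatory synapses (-0.17, adjusted p = 0.0394). Of 11 markers of glia and vessels, 1 fell at T27, 1 rose and 3 fell at T30, none was called at T36 or T42 and 1 fell at T48, which was Aldh1l1, an astrocyte enzyme (-0.31, adjusted p = 0.0111). The median difference at T27, T30, T36, T42 and T48 was 0.00, -0.01, 0.01, -0.02 and -0.02 for excitatory markers and -0.01, -0.09, -0.01, 0.05 and -0.02 for glia and vessels. Over all genes it was -0.01, 0.00, 0.00, 0.00 and 0.00. The largest called change among excitatory markers was that of Neurod6, 0.44 at T27 (adjusted p = 0.0112) and 0.43 at T30 (adjusted p = 0.00342). Among glia and vessels it was that of P2ry12 at T27 (-0.21, adjusted p = 0.0308) and of Mog at T30 (-0.38, adjusted p = 0.00804). Leaving out 1 animal lost these P2ry12 and Mog calls in 3 of 6 and 1 of 8 fits. Both T48 genes, Camk2a and Aldh1l1, were named after their values were seen. The T48 call of Camk2a was lost without any one of T0N1, T0N2, T0N5, J70N2, T48S1, T48S3 and T48S4 (adjusted p from 0.0523 to 0.172), with batch 1 animals alone (adjusted p = 0.152) and with the animal number as a block (adjusted p = 0.0762). It was also lost after quantile normalization (adjusted p = 0.104) and with the ZT0 controls labelled T24 or T0 alone (adjusted p = 0.185 and 0.0755). That of Aldh1l1 was lost without T48S1 (adjusted p = 0.101) and with the T0 label alone (adjusted p = 0.0817).

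The T48 animals, in which Crh was lower, also differed from the ZT0 controls in summed marker levels. The inhibitory sum was 1395 to 1507 at T48, below all ZT0 controls at 1523 to 1629. The excitatory sum was 2678 to 2782 against 2778 to 3017 at ZT0, and the sum of glia and vessels was 2417 to 2694 against 1870 to 2417, so these 2 sums overlapped their controls, the first at its top and the second at its bottom. At T36 the sum of glia and vessels was 1647 to 1763 against 1721 to 2152 at ZT12, and that of excitatory markers was 2873 to 3055 against 2740 to 3090. The part of these markers in the Crh differences was not tested.

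The summed level of 3 listed choroid plexus markers was below that of the controls at the 3 times at which Crh was higher, most widely against the ZT3 controls. Enpp2 made up most of this sum. Its mean log2 level over all animals was 7.30, against 2.13 for Ttr and 1.35 for Kl. Away from ZT3, where Ttr reached 7.54, the sum therefore mainly followed the level of Enpp2 and is not a measure of all 3 markers. All 3 measured of 5 listed (Ttr, Kl and Enpp2) were lower at T27 than at ZT3, Ttr by -3.22 (SE 0.78, adjusted p = 0.0028). Ttr levels were 2.95, 4.66 and 7.54 from lowest to highest at ZT3, against 1.51 to 2.29 at T27 and at most 2.59 at ZT6. Without T3N2 the Ttr difference was -1.97 (adjusted p = 0.0968) and that of Kl -0.10 (adjusted p = 0.708). The Kl call was also lost without T27S2, T27S3 or T27S5 (adjusted p from 0.0674 to 0.175), and with batch 1 animals alone (adjusted p = 0.0852), quantile normalization (adjusted p = 0.0914) or the animal number as a block (adjusted p = 0.0707). The summed level of the 3 markers was 164 to 378 at ZT3 and 137 to 151 at T27, while Folr1 and Aqp1 had no row. Without any 1 of the 3 ZT3 controls or 3 T27 animals, the Crh difference at T27 lay between 0.54 and 0.63 and was called each time (adjusted p from 0.00253 to 0.00903). At T30 Enpp2 was lower by -0.18 (adjusted p = 0.00508), and the summed level was 147 to 148 against 157 to 176 at ZT6. At T36 none of the 3 markers was called, and the summed level was 152 to 153 against 164 to 171 at ZT12. The sums did not overlap at these times, nor at T48, when the sum was higher, at 167 to 189 against 146 to 164 at ZT0. The part of choroid plexus RNA in the Crh differences was not tested.

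Over the 17 group means, the Crh profile was most like those of Elmo2 (Pearson r 0.95), Lingo1 (0.95), Slc9a5 (0.95), Cinp (0.95) and Scg2 (0.94), out of 9951 genes compared. Scg2 encodes a granin of dense-core vesicles, the stores from which neuropeptides are released. The range of its group means was 0.93, against 1.43 for Crh, and that of Elmo2 was 0.41. Crhbp was most like Adcyap1 (0.85), which encodes the neuropeptide PACAP, and then Pbxip1 (0.85), Rnf19b (0.84), Clec18a (0.82) and Scube1 (0.82). Crhr1 was most like Pou6f1 (0.91), Rabggta (0.91), Agrn (0.90), Rspo1 (0.90) and Bcam (0.88). The range of 1.43 for Crh was the 114th widest of 13842 genes. It was 0.39 for Crhbp and 0.34 for Crhr1, wider than in 70.8% and 62.1% of genes.

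Between members, r over the 17 group means was 0.77 for Crh and Crhbp, 0.49 for Crh and Crhr1 and 0.56 for Crhbp and Crhr1. Within groups, over 62 animals after subtracting each group's mean, it was 0.13, 0.13 and 0.00. These correlations are descriptions: the members share libraries, and group means share the deprivation and the time of day.

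Open chromatin was examined in the span of each gene widened by 50 kb on each side, which held 6 peaks for Crh, 10 for Crhbp and 13 for Crhr1. A window does not assign a peak to a gene. The 59 ATAC libraries held 2205737 to 11912274 reads in peaks (median 4094969). The Crh gene contains a peak, chr3:19693758-19694948, whose signal was 16.1, 16.8 and 20.3 at T27 against 13.5, 17.1 and 18.0 at ZT3, and 15.5, 17.7 and 20.3 at T30 against 15.2 to 19.0 at ZT6. Its differences were 0.13 (SE 0.17), 0.05 (SE 0.16) and -0.23 (SE 0.16) on the log2(signal + 0.5) scale at T27, T30 and T36, with adjusted p of 0.848, 0.921 and 0.595. None of the 6 peaks in the Crh window was called by limma in the 12 comparisons, 5 of the 72 tests had an unadjusted p under 0.05, and edgeR on the recovered reads called none. The smallest adjusted p at T30 was 0.129, for chr3:19701469-19702033 (difference -0.75), where 2.60% of all 130727 peaks were called. Beyond T36 between 0% and 0.00153% of all peaks were called.

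Peaks that passed the test lay next to Crhbp. The peak chr13:95427565-95428019, 3357 bases past the 3′ end of the gene, had signals of 5.22, 6.97 and 8.98 at T30 against 1.87, 2.25, 2.31, 4.44 and 4.90 at ZT6. At T36 they were 5.29, 5.13 and 3.45 against 1.11 to 2.36 at ZT12. The differences were 1.01 (SE 0.26, adjusted p = 0.0168) and 1.23 (SE 0.26, adjusted p = 0.0129), and 0.618% of all peaks were called at T36. At T27 the signals were 6.17, 6.46 and 7.71 against 2.93 to 4.79 at ZT3, a difference of 0.73 (SE 0.29, adjusted p = 0.266). At T42 the difference was -0.20 (adjusted p = 1.00).

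The same peak varied with time of day in controls (limma F-test, adjusted p = 0.000187; 1.39% of all peaks passed). Its mean signal was 4.75 ± 1.07 (SD, n = 8) at ZT0, 3.93 ± 0.94 (SD, n = 3) at ZT3, 3.15 ± 1.41 (SD, n = 5) at ZT6, 1.58 ± 0.53 (SD, n = 5) at ZT12 and 3.53 ± 0.97 (SD, n = 4) at ZT18. It was lowest at ZT12, while for Crhbp mRNA no pair of control times passed the test. The peak is small, with 4 to 48 reads per library. The T30 call was lost without T30S4 (0.83, adjusted p = 0.172), T30S3 (1.01, adjusted p = 0.0514) or T6N2 (0.90, adjusted p = 0.0608). The T36 call was lost without T36S1 (1.13), T36S2 (1.15) or T12N1 (1.10), with adjusted p of 0.0836, 0.0863 and 0.0556.

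A second peak, chr13:95450764-95451128, 5933 bases upstream of the Crhbp start, was called at T27. Its signals were 3.18, 3.96 and 3.51 against 1.78, 0.90 and 0.49 at ZT3, a difference of 1.46 (SE 0.34, adjusted p = 0.0161), where 0.689% of peaks were called. These ZT3 signals rest on 7, 3 and 2 reads. The call was lost without T3N4 (1.18, adjusted p = 0.183), T3N3 (1.43, adjusted p = 0.0501), T27S3 (1.39, adjusted p = 0.112) or T27S5 (1.47, adjusted p = 0.0983). At T30 the signals were 2.91 to 3.77 against 1.11 to 2.68 in the controls. The difference was 0.67 (adjusted p = 0.276), and at T36 it was -0.04 (adjusted p = 0.979). The third named peak of this window, chr13:95424810-95425311, had differences of 0.67 at T27 and 0.45 at T30 (adjusted p = 0.215 and 0.326). EdgeR on the recovered reads called the same 3 differences of these peaks as limma.

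**Figure D5:**
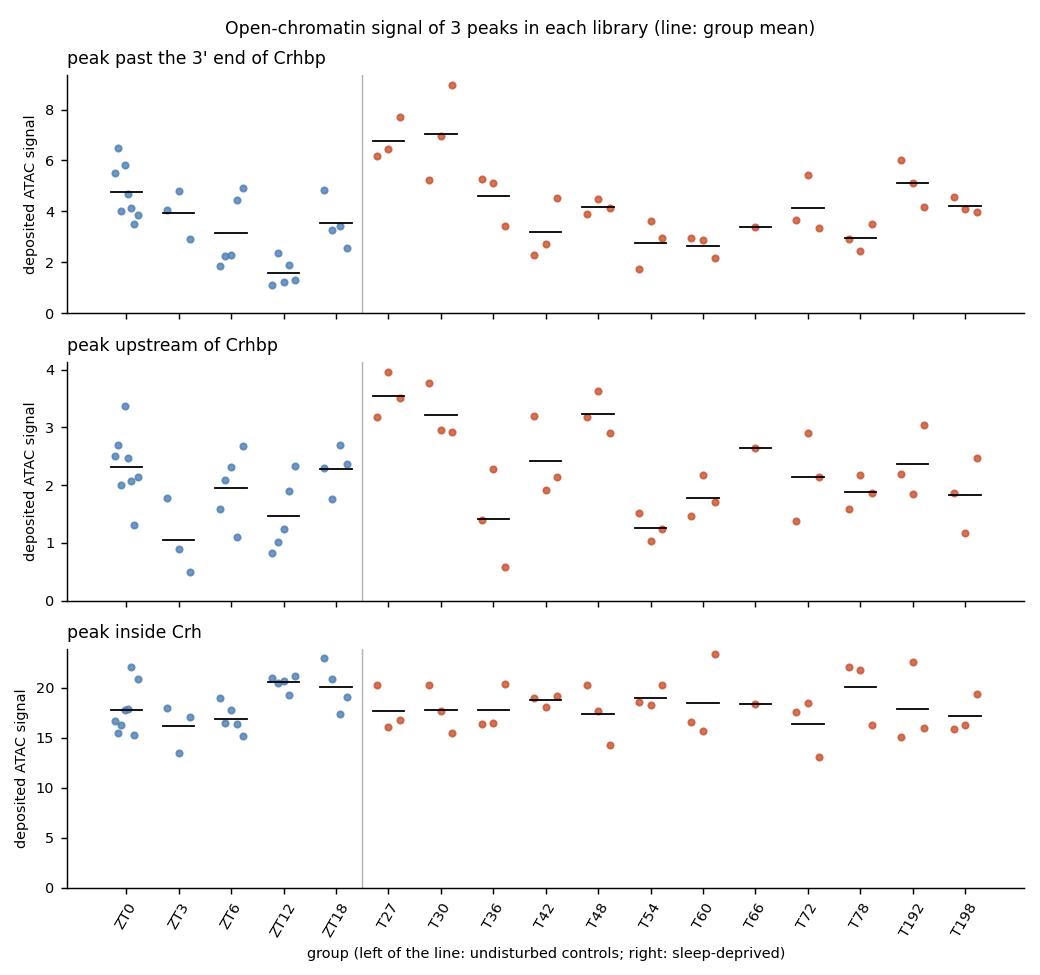
Deposited ATAC signal (y axis, from 0) in each library of the 17 groups (x axis) for the peak past the 3′ end of Crhbp, the peak upstream of Crhbp and the peak inside Crh; lines are group means, and T66 has 1 library. The first peak is highest at T27 and T30 and lowest at ZT12, and the Crh peak stays between 13.1 and 23.4 throughout.

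The Crhr1 promoter printed above showed no called change of accessibility, and no peak overlapped the printed Crhbp promoter. The Crhr1 promoter lies inside the peak chr11:104132437-104133934, whose differences were -0.04 (SE 0.24), -0.26 (SE 0.22) and 0.30 (SE 0.22) at T27, T30 and T36, with adjusted p of 0.976, 0.623 and 0.635. The neighbouring peak chr11:104131677-104132288 had a difference of -0.56 (SE 0.28, adjusted p = 0.442) at T27. The peak nearest the Crhbp start, chr13:95443433-95444069, lay 762 bases inside the gene, with differences between -0.21 and 0.08 at T27, T30 and T36 (adjusted p from 0.787 to 0.956). None of the 13 peaks in the Crhr1 window was called by limma in any of the 12 comparisons, 2 of the 156 tests had an unadjusted p under 0.05, and edgeR called none. At T36 chr11:104099450-104100048 had the largest difference of that window, 0.64 (SE 0.25, adjusted p = 0.228).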

How the data were processed

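RNA-seq and ATAC-seq were measured in cortex of the same mice. The RNA values are log2 of a depth-scaled level plus 0.5, as deposited by the authors, and the ATAC values are signal per peak, scaled to library size, as deposited. The submitters' processing notes name the build GRCm38/mm10 and the tools kallisto 0.43.0, HTSeq 0.6.1, MACS2 2.1.1, sleuth 0.29.0, Bowtie2, bedtools 2.26.0, FastQC and SAMtools, with no role or order. Batch 2 RNA columns hold no value at exactly -1 and 23 values below it, down to -3.85, while batch 1 holds 30 at -1 and none below, so the deposited batches were not treated alike. RNA depth cannot be read from these normalized values. Whole ATAC reads were recovered from the steps of the signal (100% of values within 0.02 of a whole number). One ZT0 RNA column is named for an animal with libraries of both batches and was counted as batch 1, and the repeat ATAC library was left out.

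All 13842 genes were fitted with limma 3.58.1 in R 4.3.3, with 17 groups and batch as terms (44 residual degrees of freedom), and p-values were adjusted by Benjamini-Hochberg over all genes in each comparison. All 130727 peaks of 59 animals were fitted likewise on log2(signal + 0.5), with 1 animal at T66 and 4 at ZT18, and edgeR 4.0.16 on the recovered reads was an alternative. Called means an adjusted p below 0.05. The difference of 2 genes was tested by exact permutation. Fits were tested on simulated data. Each animal was a replicate. Genes named from a list were those called at T27, T30, T36 or T42, at most 4 a list and time. Not all marker genes were named by this rule. Likeness was the 5 highest Pearson r over group means, among genes above the 25th percentile of mean level. Named peaks were those at a start and the 3 with the smallest p in each window. Alternatives were no batch term, batch 1 only, no intensity trend, quantile normalization, an offset of 1, a filter at the 25th percentile, either ZT0 label alone, animal number as a block, and leaving out each animal. The members and lists were chosen with earlier results of these data known.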

Additional observations from a re-analysis of the deposited data

Results flagged for a closer look

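Among 68 groups of 4, 5 or 8 animals checked for a single animal far from the rest, 4 were flagged. Chance gives about 1 in 20, a share close to this. The ZT6 control T6N2 had a Crh level of 2.87, below the other 4 ZT6 animals. In the same animal the peak just inside the Crhbp start had a signal of 4.84, above the other ZT6 libraries. The ZT18 control T18N4 had a signal of 2.69 at that peak, and the ZT0 control T0N9 had 9.82 at the peak chr13:95424810-95425311, apart from the others of their groups.

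Effects of deprivation on Crh differed between neighbouring times at 2 steps by limma's test of the difference. The effect changed by -0.89 from T36 to T42 (adjusted p = 0.000614) and by -0.73 from T42 to T48 (adjusted p = 0.0112).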

How the results depend on the processing

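The Crh calls at T27, T30 and T36 held under all settings tried, and no result reversed, with direction judged only where a value passed the threshold under either setting. The Crh difference at T48 was -0.43 with batch 1 animals alone, -0.41 with the filter at the 25th percentile, -0.41 with the T24 or T0 label alone, and -0.52 to -0.35 leaving out 1 animal. The Crhbp difference at T42 was 0.30 with batch 1 alone (adjusted p = 0.0997). The Crhbp F statistic over control times, 3.55, was 2.34 with batch 1 alone, 2.80 with the T24 label alone and 2.66 to 4.01 leaving out 1 animal. Leaving out 1 animal gave 0.21 to 0.29 for Crhbp at T36, 0.21 to 0.37 at T42, -0.84 to -0.63 for the Crh change from T42 to T48 and -0.36 to -0.19 for that of Crhr1. Peaks called in the windows were 0 at T27 with the filter on signal, and 0 to 1 at T27, T30 and T36 leaving out 1 animal. With the animal number as a replicate block, the Crh difference at T48 was -0.44 (adjusted p = 0.0567), the Crhbp F statistic was 3.34 (adjusted p = 0.0586), and Crh was higher by 0.62, 1.04 and 1.10 at T27, T30 and T36. Over 235 same-numbered pairs the median correlation of deviations was -0.0015, with a range of -0.30 to 0.36 and 47 pairs above 0.1. The numbers were thus not shown to pair the animals, but a median cannot tell whether some of them were paired. Genes called numbered 145 at T42 and 176 at T48, against 238 and 318 without the batch term, 40 and 48 with batch 1 alone and 78 and 106 with the block, and 106 at T48 with the filter. At T48 they were 56 and 57 with the T24 and T0 labels alone. The ATAC fit without the only T66 library was not possible. With 3 animals in each deprived group and 2 to 48 reads in the smaller peaks, small differences were not detectable.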
